A study of Mus musculus with 18 samples.

Results

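The genes that write, copy or remove DNA methylation were followed through retinoic acid (RA) treatment of mouse embryonic stem (ES) cells: Dnmt1, Dnmt3a, Dnmt3b, Dnmt3l, Uhrf1, Tet1 and Tet2. They were taken by symbol from the annotation of the array's probe sets, with no use of their signals, and are 7 of 18194 genes with a single-symbol probe set. All 7 were tested, through 19 probe sets. The study used AB1 murine ES cells, either wild type (Wt) or CYP26A1-/-, called knockout here. Cyp26a1 encodes the cytochrome P450 that oxidises RA. For each genotype there were 3 arrays of control cells, untreated, with leukemia inhibitory factor (LIF) at 8 h, 3 arrays of cells given 100 nM RA with LIF for 8 h, 2 arrays of cells given 100 nM RA with LIF for 72 h, and 1 array of control cells kept without LIF for 8 h. LIF is the cytokine that holds mouse ES cells undifferentiated, and RA, made from vitamin A, is the ligand of nuclear receptors that bind DNA. There was no 72 h control among the groups, so 72 h of RA and 72 h of culture cannot be told apart. The labels do not say how many clones the knockout line stands for, or whether repeats were separate cultures, so the p-values reflect array-to-array spread within groups alone, possibly technical.

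Methyl groups are placed on cytosines of CpG pairs by the de novo enzymes Dnmt3a and Dnmt3b, which work together with Dnmt3l, a relative without catalytic activity that is abundant in ES and germ cells. After replication Uhrf1 binds hemimethylated CpGs and brings Dnmt1, the maintenance enzyme, which copies the pattern onto the new strand. Tet enzymes oxidise methylated cytosine, the first step of its removal, and ES cells mainly use Tet1 and Tet2. As ES cells leave the naive state, genome-wide methylation is known to rise and Dnmt3l to be switched off later in differentiation.

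The start-site windows of Dnmt3l, Dnmt3b and Tet1 are shown because these 3 genes had the largest falls after 72 h of RA, and because they differ in CpG content, the substrate of the enzymes themselves. Each window runs from 250 bases before to 50 bases after a RefSeq transcript start, 300 bases in all, on build GRCm38.p6, 5′ to 3′, in lower case with each CG in capitals.
Dnmt3l, chr10:78042037-78042336, plus strand: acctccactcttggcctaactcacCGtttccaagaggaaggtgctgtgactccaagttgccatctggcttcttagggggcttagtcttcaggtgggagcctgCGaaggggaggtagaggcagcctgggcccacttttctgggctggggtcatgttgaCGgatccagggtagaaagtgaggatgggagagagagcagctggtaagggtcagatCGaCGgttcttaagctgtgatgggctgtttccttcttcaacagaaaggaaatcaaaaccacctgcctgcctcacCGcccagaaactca
Dnmt3l, chr10:78049592-78049891, plus strand: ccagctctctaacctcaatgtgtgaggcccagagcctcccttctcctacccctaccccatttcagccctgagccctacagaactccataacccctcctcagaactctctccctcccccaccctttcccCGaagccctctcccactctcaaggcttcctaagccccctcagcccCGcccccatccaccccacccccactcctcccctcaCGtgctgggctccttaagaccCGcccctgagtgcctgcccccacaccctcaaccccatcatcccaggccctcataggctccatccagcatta
Dnmt3l, chr10:78055085-78055384, plus strand: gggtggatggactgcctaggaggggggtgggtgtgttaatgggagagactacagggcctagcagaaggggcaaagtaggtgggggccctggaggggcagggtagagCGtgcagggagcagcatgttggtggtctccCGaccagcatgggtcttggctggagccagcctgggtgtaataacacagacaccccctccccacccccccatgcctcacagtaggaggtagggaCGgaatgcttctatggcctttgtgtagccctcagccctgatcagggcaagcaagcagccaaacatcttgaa
Dnmt3b, chr2:153649199-153649498, plus strand: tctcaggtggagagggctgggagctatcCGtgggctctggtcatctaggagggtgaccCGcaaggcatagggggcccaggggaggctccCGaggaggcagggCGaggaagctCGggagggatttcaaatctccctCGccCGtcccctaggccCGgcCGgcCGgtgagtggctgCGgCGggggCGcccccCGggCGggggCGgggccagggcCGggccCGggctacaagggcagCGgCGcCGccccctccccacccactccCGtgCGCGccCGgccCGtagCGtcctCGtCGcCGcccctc
Tet1, chr10:62887275-62887574, minus strand: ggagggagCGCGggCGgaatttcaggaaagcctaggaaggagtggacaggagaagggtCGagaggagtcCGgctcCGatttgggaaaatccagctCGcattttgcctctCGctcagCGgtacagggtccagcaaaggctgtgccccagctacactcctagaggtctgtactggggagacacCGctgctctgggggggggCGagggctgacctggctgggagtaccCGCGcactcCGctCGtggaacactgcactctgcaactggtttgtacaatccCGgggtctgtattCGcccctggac
The 3 Dnmt3l windows held 6, 4 and 3 CpGs, against a median of 7 over all 32851 windows. Dnmt3b held 30 and Tet1 held 17. All 7 genes matched the RefSeq table, in 14 windows. The core motif of nuclear receptor sites, AGGTCA on either strand, was found in 3 of these 14 windows, of Dnmt3a, Uhrf1 and Tet1, and in 16.26% of all windows. The STAT-type palindrome TTCNNNGAA, which does not overlap AGGTCA, was found in the second Dnmt3l window listed, and in 8.3% of all windows. These matches describe the letters only, and which start each probe set reads was not determined.

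Dnmt3l fell within 8 h of RA and further by 72 h, when Dnmt3b, Tet1 and Uhrf1 were also lower and Tet2 was higher over the mean of the genotypes. Dnmt1 and Dnmt3a were not called, and how the replicate 1 controls were treated changed the Dnmt3a result and the 72 h calls of Dnmt3b, Uhrf1 and Tet2. In the comparisons below a gene is called, and is said to have risen or fallen, when limma's p-value adjusted over all 11388 genes tested is under 0.05, and values are log2 differences ± standard error. Whether the arrays of groups overlap is given as a description alone. Groups of 2 or 3 arrays can lie apart by chance, and the share of all genes without overlap was not worked out. After 8 h of RA none of the 7 was called in wild type, where 0.904% of all genes were, and none in the knockout, where 0.957% were. Over the mean of the genotypes 1 of 7 was lower, against 1.03% of all genes lower and 3.36% called in either direction. After 72 h of RA, against control, 2 of 7 were lower in wild type, where 8.64% of all genes were lower and 24.7% called in all. In the knockout 1 of 7 was lower, where 8.26% of all genes were lower and 23% called in all. Over the mean of the genotypes 4 of 7 were lower and 1 higher, against 15.2% of all genes lower, 24.8% higher and 40% called in all. As labelled, the share of the 7 that was lower stood above the background and the share that was higher did not. These counts moved with the controls. Without the replicate 1 controls Dnmt3l and Tet1 stayed lower, the calls of Dnmt3b, Uhrf1 and Tet2 were lost, and Dnmt3a was called higher. In that setting 12.9% of all genes were lower and 23.2% higher. Between 8 h and 72 h of RA 2 of 7 were lower in wild type, where 8.18% of all genes were lower and 22.3% called, and 1 of 7 in the knockout, where 6.52% were lower and 19.2% called. The median log2 difference of the 7 at 72 h, mean of genotypes, was -0.33, and that of all genes tested was 0.06.

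**Figure D1:**
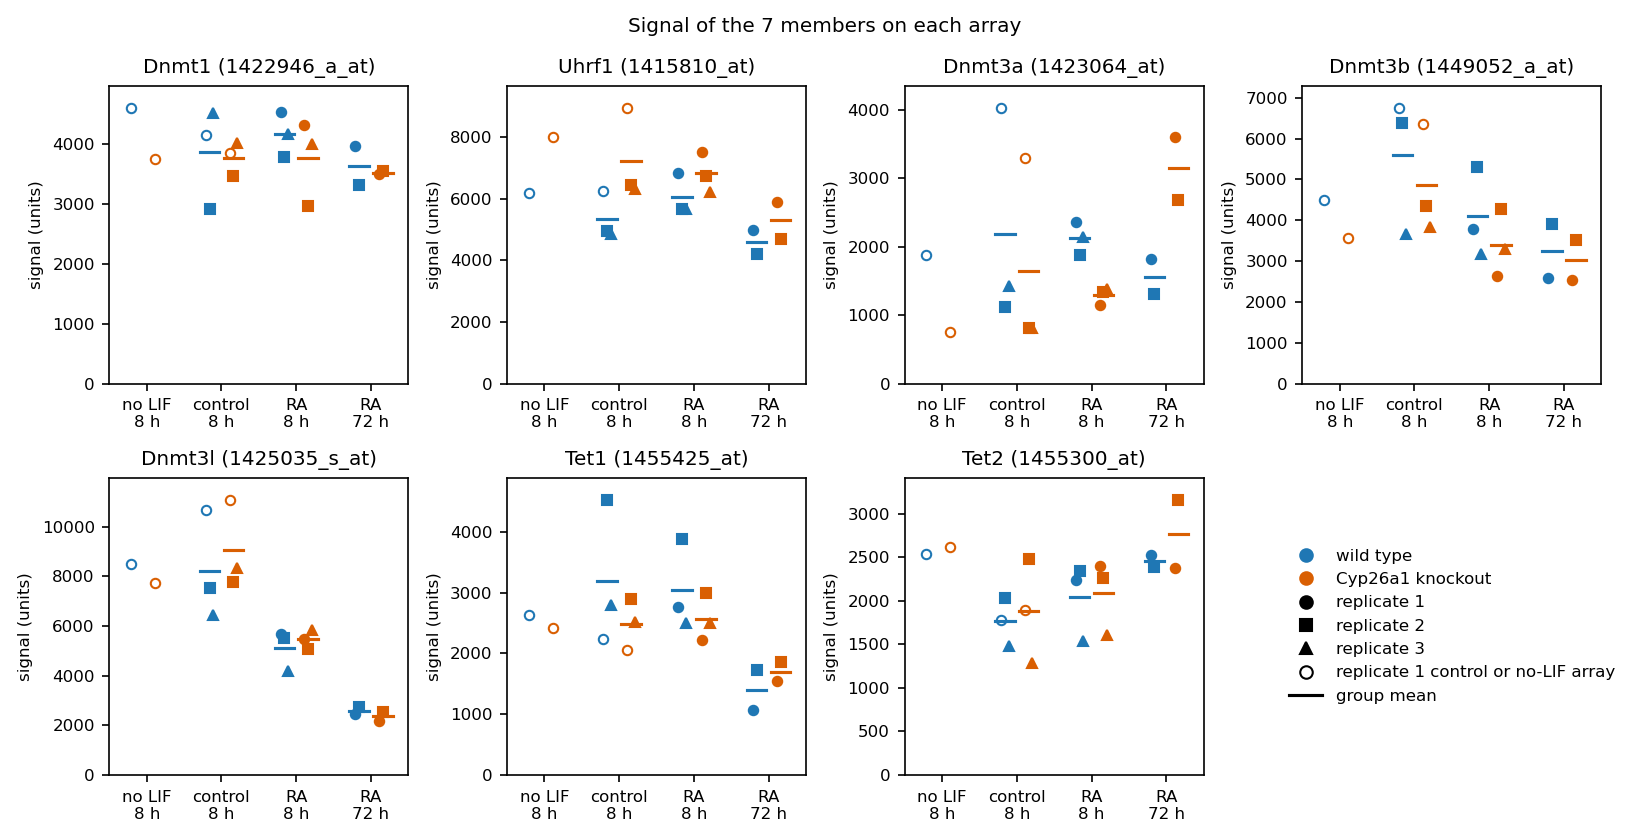
Signal in MAS5 units (vertical axis, linear, from 0) of the 7 genes on each of the 18 arrays, by condition (horizontal axis) and genotype (colour), with lines at group means. Dnmt3l fell stepwise from control to 8 h to 72 h, and the open circles, replicate 1 of the control and no-LIF arrays, stand apart for Dnmt3a.

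The replicate 1 control arrays need care. On them Socs3, the feedback inhibitor that LIF induces through STAT3, was at 367.5 units (wild type) and 215.3 units (knockout), although both are labelled with LIF. On the arrays labelled without LIF it read 3800 and 4551 units, and on the other 14 arrays 2628 to 6001 units. The signals are MAS5 intensities scaled to a trimmed mean of 500 units per array. The LIF-responsive genes Bcl3, Stat3, Klf4, Tfcp2l1 and Pim3 were also lower on the replicate 1 controls than on the no-LIF arrays of both genotypes, and Pim1 was not. Results are therefore given as labelled and, where they change, with the LIF labels exchanged within each genotype and with both replicate 1 controls left out. The ES cell markers Pou5f1, encoding Oct4, and Nanog had group means of 10960 to 15340 and 6427 to 9612 units, as the labelled cell type has.

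Dnmt3l, the cofactor of de novo methylation, showed the clearest change of the 7. In wild-type control cells its signal was 10662, 7532 and 6435 units, after 8 h of RA 5668, 5521 and 4203 units, and after 72 h 2444 and 2741 units. In knockout control cells it was 11090, 7778 and 8352 units, after 8 h 5475, 5093 and 5820 units, and after 72 h 2183 and 2550 units. Every RA array was below every control array of its genotype, and every 72 h array was below every 8 h array. The 8 h difference was -0.66 ± 0.18 in wild type (limma adjusted p = 0.1178) and -0.72 ± 0.18 in the knockout (adjusted p = 0.08026), neither past the threshold alone, and the mean of the genotypes fell by 0.69 ± 0.12 (adjusted p = 0.004646), a decrease of 37.9%. At 72 h Dnmt3l fell by 1.63 ± 0.20 in wild type (adjusted p = 2.677e-05) and by 1.93 ± 0.20 in the knockout (adjusted p = 6.404e-06). Averaged over the genotypes the fall was 3.43-fold, with a 95% interval of -2.07 to -1.48 on the log2 scale. Most of it came after 8 h: from 8 h to 72 h Dnmt3l fell by 0.97 in wild type (adjusted p = 0.002323) and by 1.21 in the knockout (adjusted p = 0.0006056). With the LIF labels exchanged the 8 h fall was called in each genotype, at -0.55 in wild type (adjusted p = 0.03996) and -0.54 in the knockout (adjusted p = 0.04312), where 1.41% and 1.37% of all genes were called. In these bulk samples fewer cells with Dnmt3l transcript and less transcript per cell cannot be told apart.

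Dnmt3b, the de novo enzyme that predominates in early embryonic cells, fell less than Dnmt3l. Its brighter probe set read 6749, 6370 and 3669 units in wild-type controls, 3792, 5310 and 3180 units after 8 h of RA and 2588 and 3911 units after 72 h. In the knockout it read 6359, 4355 and 3844 units in controls, 2642, 4275 and 3287 units after 8 h and 2541 and 3523 units after 72 h. The groups overlapped in wild type at both times and in the knockout at 8 h, and the knockout 72 h arrays lay below all 3 knockout controls. Over the mean of the genotypes Dnmt3b fell by 0.71 ± 0.22 at 72 h (limma adjusted p = 0.01558), a decrease of 39%. The difference was -0.76 in wild type (adjusted p = 0.08045) and -0.66 in the knockout (adjusted p = 0.1369). The mean call was lost without wild-type 72 h replicate 1 (-0.56, adjusted p = 0.08713), without knockout 72 h replicate 1 (-0.60, adjusted p = 0.0803), with no filter on dim genes (adjusted p = 0.06238), with the LIF labels exchanged (-0.48, adjusted p = 0.05206) and without the replicate 1 controls (-0.53, adjusted p = 0.0754). With the replicate number as a term in the fit the mean difference was -0.87 ± 0.17 (limma adjusted p = 0.0006138). The second Dnmt3b probe set, 1418351_a_at, gave a tighter picture. It read 2368, 1784 and 1455 units in wild-type controls and 875 and 971 units at 72 h, and 1496, 1364 and 1639 units in knockout controls and 654 and 954 units at 72 h, with no overlap in either genotype. In a fit over 20246 probe sets, of which 18.5% were called at 72 h in wild type, 16.8% in the knockout and 32.1% over their mean, it fell by 0.99 ± 0.21 in wild type (adjusted p = 0.004726) and by 0.92 ± 0.21 in the knockout (adjusted p = 0.00816). At 8 h its mean difference was -0.48 ± 0.13 (adjusted p = 0.09058), not past the threshold.

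**Figure D2:**
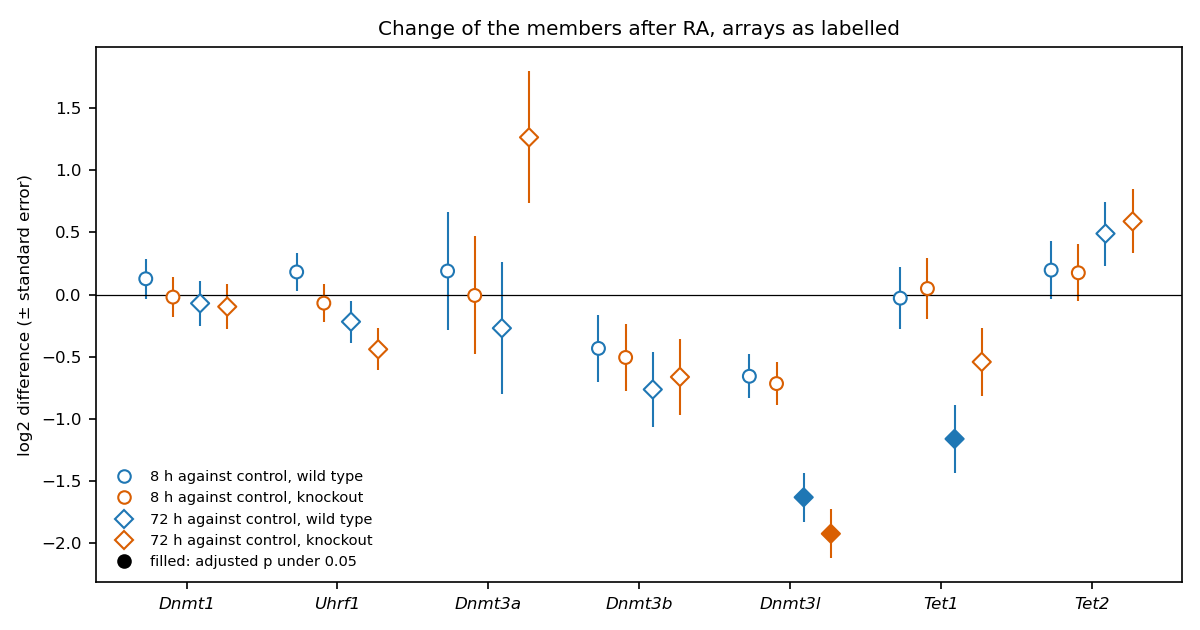
Log2 difference after RA against control (vertical axis, bars are standard errors) for each of the 7 genes (horizontal axis) at 8 h (circles) and 72 h (diamonds) in wild type (blue) and knockout (orange), as labelled. Filled symbols, adjusted p under 0.05, are Dnmt3l in both genotypes and Tet1 in wild type, all at 72 h, and Dnmt3a is the gene whose 72 h values lie on opposite sides of 0.

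Dnmt3a, the other de novo enzyme, gave no call in the main fit as labelled and several in other settings. These include other treatments of the replicate 1 controls, a replicate term, and fits of only the groups compared. In wild-type controls it read 4030, 1121 and 1425 units, after 8 h of RA 2364, 1883 and 2146 units, and after 72 h 1819 and 1307 units. In knockout controls it read 3302, 808 and 814 units, after 8 h 1146, 1346 and 1386 units, and after 72 h 3602 and 2692 units. The replicate 1 control was the highest of its group in both genotypes, at 2.14 times the no-LIF array in wild type and 4.36 times in the knockout. In the main fit as labelled no Dnmt3a difference was called: 1.27 ± 0.53 at 72 h in the knockout (limma adjusted p = 0.1029) and -0.27 ± 0.53 in wild type (adjusted p = 0.7607). With the replicate number as a term, labels unchanged, the knockout rise was 1.15 ± 0.41 (limma adjusted p = 0.04229). Fits of only the groups compared, labels unchanged, called the knockout from 8 h to 72 h (1.27 ± 0.17, adjusted p = 0.002078). They also called knockout against wild type at 8 h (-0.72 ± 0.15, adjusted p = 0.03018) and at 72 h (1.01 ± 0.20, adjusted p = 0.01951). With the LIF labels exchanged the standard error of a knockout difference at 72 h was 0.20, and Dnmt3a rose by 1.97 in the knockout (adjusted p = 4.03e-06), 3.93-fold, with 0.10 in wild type (adjusted p = 0.7638). Without the replicate 1 controls the knockout rise was 1.94 ± 0.20 (adjusted p = 1.839e-05). In the knockout 25.3% of all genes were called with the labels exchanged and 19.3% without those controls. Under both of these treatments of the controls Dnmt3a also rose at 8 h over the mean of the genotypes, by 0.63 ± 0.13 with exchanged labels (adjusted p = 0.007542) and by 0.71 without them (adjusted p = 0.007644), where 4.05% and 2.6% of all genes were called.

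The genotypes stood apart for Dnmt3a within the RA-treated arrays, on which Socs3 read 2628 units or more. Both wild-type 72 h arrays lay below all 3 wild-type 8 h arrays, and both knockout 72 h arrays lay above all 3 knockout 8 h arrays, with differences of -0.46 ± 0.53 and, in the knockout, 1.27 ± 0.53 (limma adjusted p = 0.1133). Between genotypes, the wild-type arrays were the higher ones at 8 h and the knockout arrays at 72 h, with no overlap at either time. The spread in this main fit includes the control arrays, and in it no interaction of genotype with time was called for Dnmt3a as labelled. The interaction was 1.54 ± 0.75 for 72 h against control (limma adjusted p = 0.9314) and 1.73 ± 0.75 for 72 h against 8 h (adjusted p = 0.7428). With the LIF labels exchanged both were called, at 1.88 ± 0.28 (adjusted p = 0.007949) and 1.73 ± 0.28 (adjusted p = 0.01101), where 0.396% and 0.519% of all genes were called. Without the replicate 1 controls the first was 1.65 ± 0.28 (adjusted p = 0.04619) and the second 1.73 ± 0.25 (adjusted p = 0.01776), where 0.0971% and 0.291% were called. In a fit of the RA-treated arrays alone, labels unchanged, the second was 1.73 ± 0.26 (adjusted p = 0.03522), where 0.0806% were called. The comparison of 72 h with 8 h was added after the values had been seen, and is given for the main probe set alone. Its wild-type direction was not shared by every probe set. From 8 h to 72 h wild-type means went up on 1423063_at (307.4 to 365.2 units) and 1460324_at (90.17 to 197.1 units). They went down on 1423065_at (362.6 to 262.8 units, with overlap) and 1423066_at (1477 to 909.6 units). Knockout means went up on each of these probe sets. Of the other 4 Dnmt3a probe sets, 1423065_at and 1423066_at gave interactions at 72 h of 1.69 and 1.70, 1423063_at gave 0.44 and the dim 1460324_at gave -0.64, none of them called. The last probe set, at most 124.9 units in the controls, is the one Dnmt3a probe set called at 72 h in wild type, where it was higher by 1.42 ± 0.39 (adjusted p = 0.01991).

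**Figure D3:**
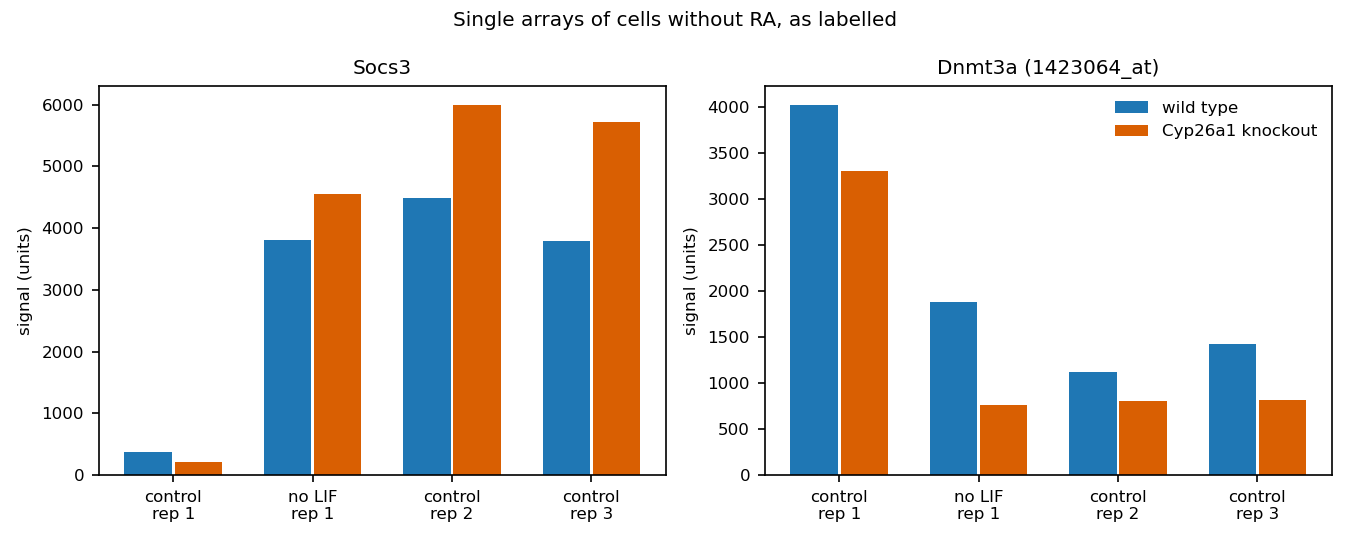
Signal in MAS5 units (vertical axes, from 0) of Socs3 and Dnmt3a on single arrays of cells without RA, by labelled condition and replicate (horizontal axis) and genotype (colour). On the replicate 1 controls Socs3 is at 367.5 and 215.3 units where the other controls read 3792 to 6001 units, and Dnmt3a is at its highest.

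**Figure D4:**
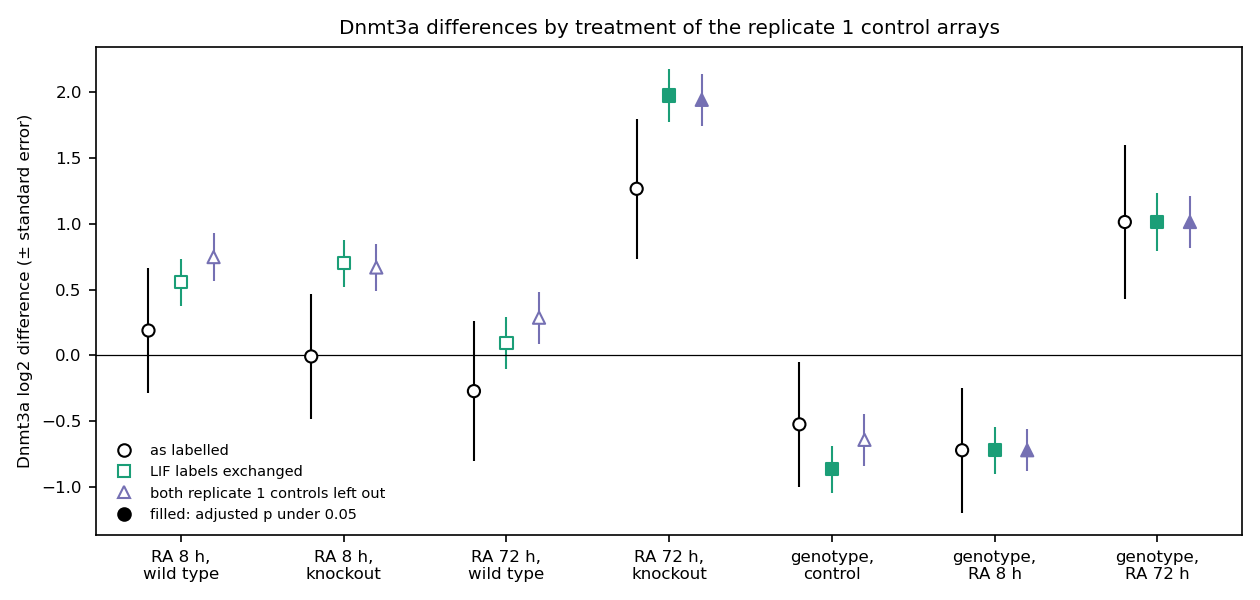
Log2 differences of Dnmt3a (vertical axis, bars are standard errors) in 7 comparisons (horizontal axis: RA against control in each genotype, then knockout against wild type in each condition) with the arrays as labelled, with LIF labels exchanged, and without the replicate 1 controls. Filled symbols are called, and the knockout difference at 72 h is 1.27 as labelled, 1.97 with labels exchanged and 1.94 without the controls.

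Dnmt1 and Uhrf1, the maintenance pair, had the smallest mean differences of the 7 at 72 h. Dnmt1 read 4157, 2923 and 4526 units in wild-type controls, 4539, 3791 and 4164 units after 8 h of RA and 3961 and 3311 units after 72 h. In the knockout it read 3853, 3460 and 4010 units, then 4311, 2972 and 3999 units, then 3497 and 3546 units. Its groups overlapped in every comparison. The 72 h difference over the mean of the genotypes was -0.08 ± 0.13 (limma adjusted p = 0.6404), with a 95% interval of -0.36 to 0.19. Its other 2 probe sets were not called either (adjusted p = 0.9993 and 0.949 in the probe-set fit). Uhrf1 read 6237, 4958 and 4857 units in wild-type controls, 6845, 5659 and 5663 units after 8 h and 4981 and 4191 units after 72 h. In the knockout it read 8946, 6438 and 6327 units, then 7525, 6727 and 6234 units, then 5910 and 4686 units. The knockout 72 h arrays lay below all knockout controls, in wild type these groups overlapped, and in both genotypes the 72 h arrays lay below the 8 h arrays. Uhrf1 fell by 0.33 ± 0.12 over the mean of the genotypes at 72 h (adjusted p = 0.03784), a decrease of 20.4%. Its other probe set, 1415811_at, stood at -0.28 ± 0.20 and was not called (adjusted p = 0.3311 in the probe-set fit). This call was lost with no filter on dim genes (adjusted p = 0.09341), with quantile normalization (0.09603), with no intensity trend (0.06413), in a fit of only the groups compared (0.05906) and with the mean of the gene's probe sets (0.05709). It was also lost without the replicate 1 control of either genotype (adjusted p = 0.08635 for wild type and 0.08319 for the knockout). The same held without wild-type 72 h replicate 2 (0.152) or knockout 72 h replicate 2 (0.1775), and without both replicate 1 controls (-0.19, adjusted p = 0.1665). With the replicate number as a term in the fit the Uhrf1 difference was -0.395 ± 0.059 (limma adjusted p = 6.601e-05).

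Tet1 and Tet2, the dioxygenases of ES cells, went in opposite directions. Tet1 read 2238, 4528 and 2793 units in wild-type controls, 2759, 3877 and 2491 units after 8 h of RA and 1076 and 1722 units after 72 h. In the knockout it read 2055, 2890 and 2519 units, then 2220, 2993 and 2492 units, then 1540 and 1859 units. In both genotypes the 72 h arrays lay below all control and all 8 h arrays. Tet1 fell by 1.16 ± 0.28 in wild type at 72 h (limma adjusted p = 0.006344), and stood at -0.54 ± 0.28 in the knockout (adjusted p = 0.18). The mean over the genotypes was -0.85 ± 0.20 (adjusted p = 0.002795). The genotypes were not shown to differ: the interaction was 0.62 ± 0.39 (adjusted p = 0.9995), with a 95% interval of -0.21 to 1.45. Without wild-type 72 h replicate 1, the lowest array, the wild-type value was -0.82 (adjusted p = 0.1157), and with the mean of the gene's 4 probe sets it was -1.15 (adjusted p = 0.07005). From 8 h to 72 h Tet1 fell by 1.13 in wild type (adjusted p = 0.008159), and this call too was lost without that array (-0.79, adjusted p = 0.1406).

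Of the other Tet1 probe sets, 1429448_s_at and 1419896_at had median signals that differed between replicate numbers. Probe set 1429448_s_at read 253.6 to 541.4 units on the 8 arrays of replicate 1, 412.6 to 1624 units on the 6 of replicate 2 and 1336 to 2167 units on the 4 of replicate 3. The 72 h arrays belong to replicates 1 and 2, so its 72 h differences, -1.46 ± 0.75 in wild type and -1.18 ± 0.75 in the knockout, carry a wide error and neither was called. The 4-array replicate 3 exists for control and 8 h groups alone. Probe set 1419896_at had the same order, with medians of 252.6, 492 and 700.9 units, and the dim 1419897_at, at most 133.4 units, had medians of 59.98, 64.77 and 69.42 units. The main probe set read 1077 to 2759 units in replicate 1 and 1722 to 4529 units in replicate 2. With the replicate number as a term in the fit, its 72 h difference was as large, -1.21 ± 0.14 in wild type (limma adjusted p = 1.928e-05) and -0.59 ± 0.14 in the knockout (adjusted p = 0.005375).

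Tet2 read 1782, 2033 and 1478 units in wild-type controls, 2236, 2348 and 1536 units after 8 h of RA and 2528 and 2392 units after 72 h. In the knockout it read 1898, 2478 and 1289 units, then 2404, 2264 and 1604 units, then 2378 and 3165 units. The 72 h arrays lay above all controls in wild type and overlapped them in the knockout. Tet2 rose by 0.54 ± 0.18 over the mean of the genotypes at 72 h (limma adjusted p = 0.02802), an increase of 45.4%. Its second probe set, 1438781_at, rose by 0.74 ± 0.22 in the probe-set fit (adjusted p = 0.01706). On that probe set the replicate 1 controls were the lowest, at 710.9 units against 1440 and 1330 in wild type. In the knockout they read 939.9 units against 1953 and 1131. The probe-set fit was not run with those controls treated otherwise. The call on the gene was lost with the LIF labels exchanged (0.38, adjusted p = 0.1619), without the replicate 1 controls (0.56, adjusted p = 0.05435), with no filter on dim genes (adjusted p = 0.08656) and without any of 5 arrays: wild-type 72 h replicate 1 (adjusted p = 0.07925) or replicate 2 (0.05964), knockout 72 h replicate 2 (0.1288), and replicate 3 of the wild-type (0.05711) or knockout (0.0612) controls. With the replicate number as a term in the fit the Tet2 difference was 0.35 ± 0.09 (limma adjusted p = 0.005677). Tet3, the third family member and not among the 7, read at most 62.5 units on any array.

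Between genotypes no member was called in the main fit as labelled. The shares of all genes called were 4.64% in control cells, 4.61% after 8 h of RA, 4.07% after 72 h and 17.7% over the mean of the 3 conditions. The nearest to the threshold was Uhrf1, higher in the knockout by 0.27 ± 0.09 over the mean of conditions (limma adjusted p = 0.06138, 95% interval 0.07 to 0.47). In control cells its 3 knockout arrays lay above its 3 wild-type arrays on the main probe set. On 1415811_at they overlapped, at 1764.5 to 2899.7 units in the knockout and 1211.3 to 2148.3 units in wild type. The Uhrf1 difference passed the threshold with the LIF labels exchanged (0.25, adjusted p = 0.04587) and without the replicate 1 controls (0.25, adjusted p = 0.0461). In these settings 19.4% and 15.3% of all genes were called. With the replicate number as a term in the fit it passed too, at 0.27 ± 0.04 (limma adjusted p = 0.0003924). For Dnmt3l the interval of the genotype difference over the conditions was -0.19 to 0.28, for Dnmt1 -0.29 to 0.14 and for Tet2 -0.22 to 0.39. Dnmt3a had the widest interval in untreated cells, -1.54 to 0.49. With the LIF labels exchanged it was lower in knockout controls by 0.86 ± 0.18 (adjusted p = 0.01045), lower after 8 h of RA by 0.72 (adjusted p = 0.02688) and higher after 72 h by 1.01 ± 0.22 (adjusted p = 0.01214). These comparisons called 5.12%, 5.78% and 5.32% of all genes. In the main fit as labelled no interaction of genotype with RA was called for any member. At 8 h limma called 0% of genes and 211 had an unadjusted p under 0.05. At 72 h 0.342% were called, and from 8 h to 72 h 0.369% were.

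Without LIF, 1 array per genotype was available. The wild-type array read 8481 units for Dnmt3l, 1880 for Dnmt3a, 4496 for Dnmt3b, 4601 for Dnmt1, 6177 for Uhrf1, 2632 for Tet1 and 2545 for Tet2. The knockout array read 7731, 757, 3554, 3749, 8001, 2418 and 2622 units in the same order. Against the 6 controls, with genotype as a term, limma called none of the 7 and none of 10476 genes (0%), with 285 at an unadjusted p under 0.05. With the LIF labels exchanged, where 1.83% of genes were called, the arrays then taken as lacking LIF were higher in Dnmt3a by 1.77 ± 0.18 (adjusted p = 0.0007171) and in Dnmt3l by 0.50 ± 0.10 (adjusted p = 0.0296). As labelled these differences were -0.38 and -0.07, so both changed sign with the label.

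Partners of the pathway also changed at 72 h. Of 14 tested maintenance and targeting partners 8 fell and 1 rose over the mean of the genotypes, against 15.2% of all genes lower and 24.8% higher, with a median of -0.28 against 0.06 for all genes. Cdca7, which recruits the remodeller Hells to methylated DNA, fell by 0.83 ± 0.11 (limma adjusted p = 2.192e-05), the H3K9 methyltransferase Ehmt2 by 0.63 ± 0.11 (adjusted p = 0.0004789) and the repressor scaffold Trim28 by 0.41 ± 0.08 (adjusted p = 0.0006485). Uhrf2, the paralog of Uhrf1, rose by 1.23 ± 0.18 (adjusted p = 6.127e-05), from group means of 567.2 to 1217 units in wild type and 744.2 to 1812 units in the knockout. With the LIF labels exchanged 6 of these 14 fell and 1 rose (16% of all genes lower and 26.1% higher), and the counts were the same without the replicate 1 controls (12.9% lower and 23.2% higher). Of 10 tested genes of methyl donor supply 6 fell and none rose, against the same 15.2% lower and 24.8% higher, with a median of -0.29. The glycine cleavage enzyme Gldc fell by 1.58 ± 0.14 (adjusted p = 3.893e-07), the serine hydroxymethyltransferase Shmt1 by 0.93 ± 0.09 (adjusted p = 9.388e-07) and the mitochondrial folate enzyme Mthfd1l by 0.49 ± 0.08 (adjusted p = 0.000193). Ahcy, which clears S-adenosylhomocysteine, fell by 0.23 ± 0.07 (adjusted p = 0.01776), a call lost without the replicate 1 controls (adjusted p = 0.08458), where 4 of 10 fell, against 12.9% of all genes.

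**Figure D5:**
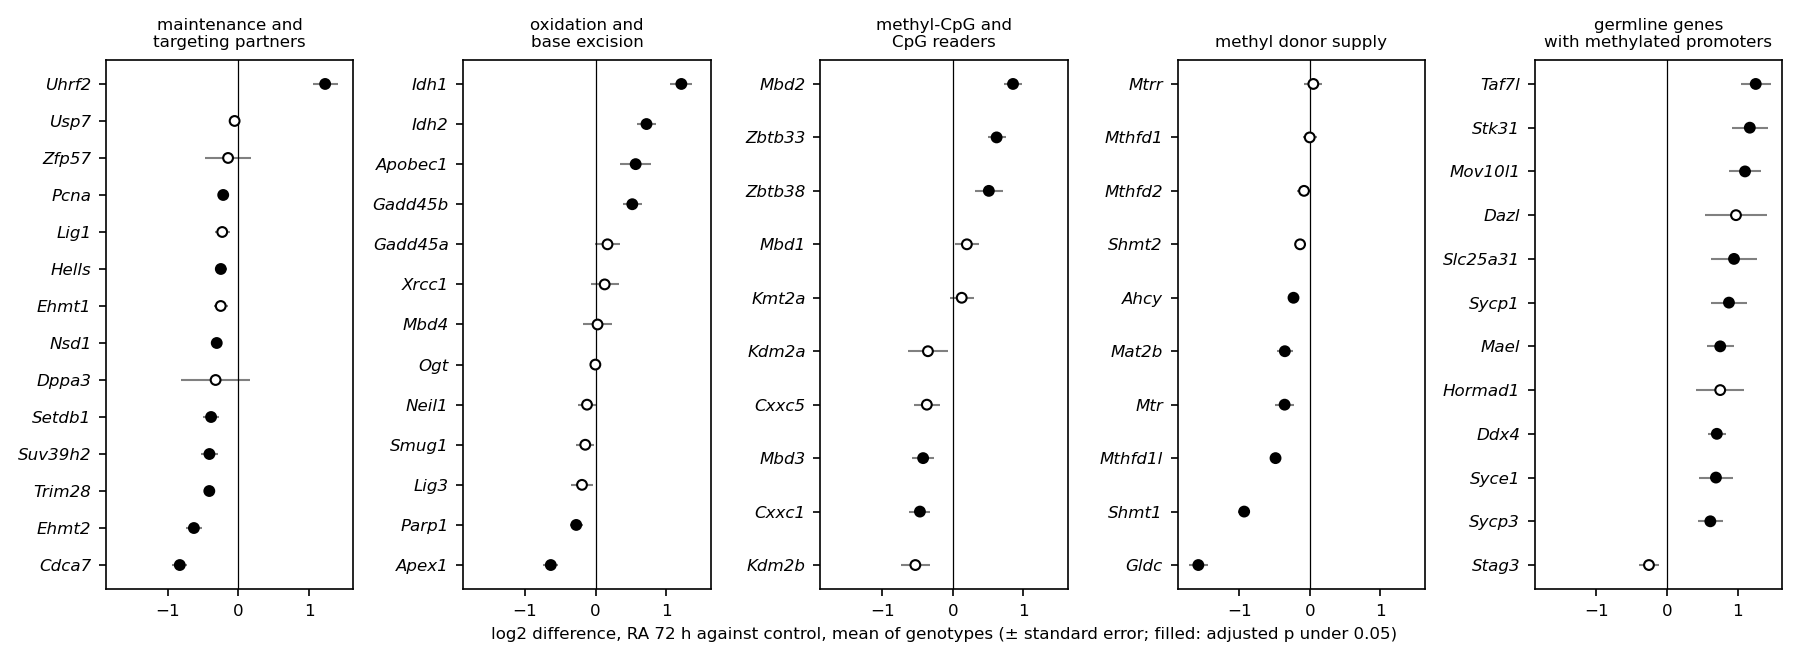
Log2 difference at RA 72 h against control, mean of genotypes (horizontal axis, bars are standard errors), of each tested gene in 5 lists (panels). Filled points have an adjusted p under 0.05: 8 of 14 maintenance partners and 6 of 10 methyl donor genes lie filled below 0, and 9 of 12 germline genes lie filled above it.

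On the oxidation and base excision side 4 of 13 tested genes rose and 2 fell at 72 h, shares near those of all genes (24.8% higher and 15.2% lower). Idh1 and Idh2, which make the oxoglutarate that Tet enzymes use, rose by 1.21 ± 0.15 (limma adjusted p = 1.951e-05) and 0.72 ± 0.13 (adjusted p = 0.0004285). Gadd45b, linked to active demethylation, rose by 0.52 ± 0.13 at 72 h (adjusted p = 0.005254) and by 0.81 ± 0.12 at 8 h (adjusted p = 0.0008418), and was the 1 gene of this list called at 8 h. The abasic site endonuclease Apex1 fell by 0.63 ± 0.11 (adjusted p = 0.0002235). Of 10 tested methyl-CpG and CpG readers 3 rose and 2 fell, also near those shares. Mbd2 rose by 0.85 ± 0.13 (adjusted p = 9.851e-05) and Zbtb33, encoding Kaiso, by 0.62 ± 0.13 (adjusted p = 0.001301), while Mbd3 of the NuRD complex fell by 0.42 ± 0.15 (adjusted p = 0.03968). Cxxc1, a binder of unmethylated CpG, fell by 0.46 ± 0.15 (adjusted p = 0.02193), a call lost without the replicate 1 controls (adjusted p = 0.09449). Replication genes, against which Dnmt1 and Uhrf1 are often read, showed 5 of 15 lower and none higher at 72 h, against 15.2% lower and 24.8% higher, led by Ccne1 (-1.59 ± 0.24, adjusted p = 8.84e-05) and Rrm2 (-0.41 ± 0.08, adjusted p = 0.0008342). These values stand beside the fall of Uhrf1, and their part in it was not tested.

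Germline genes whose promoters are known to be silenced by methylation were mostly higher at 72 h. Of 12 tested, 9 rose and none fell, against 24.8% of all genes higher, with a median of 0.82 against 0.06 for all genes. Without the replicate 1 controls 6 of 12 rose, against 23.2%. Their signals were low. Taf7l, a testis TFIID subunit, rose by 1.26 ± 0.21 (limma adjusted p = 0.0002655), from group means of 98.1 to 263.1 units in wild type and 100.1 to 215.4 units in the knockout. Stk31 rose by 1.17 ± 0.25 (adjusted p = 0.001777) and the piRNA helicase gene Mov10l1 by 1.10 ± 0.22 (adjusted p = 0.001154), at no more than 379.8 and 196.9 units on any array. Ddx4, the germ cell RNA helicase, rose by 0.71 ± 0.13 (adjusted p = 0.0005097), from 680.7 to 1031 units in wild type and 299.5 to 520.6 units in the knockout. Over the mean of conditions 2 of the 12 were lower in the knockout, where 10.7% of all genes were lower and 17.7% called in all, so nothing is read from this count. They were Ddx4 by 1.16 ± 0.10 (adjusted p = 3.969e-06) and Dazl by 1.51 ± 0.34 (adjusted p = 0.006567). Dazl read at most 76.89 units on any knockout array, and passed the filter through wild-type arrays alone. Its knockout means of 44.98 units in controls and 46.89 units after 8 h lay under the floor of 50 units. The size of the Dazl difference is therefore partly set by the floor, and its call by the filter. Methylation itself was not measured.

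Markers of other cell types moved at the same time. All 10 tested extraembryonic endoderm markers rose at 72 h over the mean of the genotypes, against 24.8% of all genes higher. Foxa2 passed the filter through the 72 h arrays alone, with at most 60.5 units in controls and 89.0 after 8 h. The count is therefore partly set by the filter. The summed signal was 2486 to 7318 units in wild-type controls and 13640 to 19240 units at 72 h. In the knockout it was 1399 to 3297 units in controls and 12640 to 13580 units at 72 h. Of that list Afp was the marker under 100 units in every group, and Ttr was too except in wild type at 72 h. Of 6 tested trophectoderm markers 4 rose, against the same 24.8% of all genes. The sum of the list went from 1243 to 2101 up to 12380 to 13130 units in wild type. In the knockout it went from 1498 to 1817 up to 3050 to 3594 units. Krt8 and Krt18 carried the wild-type sum, with means of 5938 and 5787 units at 72 h. Krt7 reached 100 units on wild-type 72 h arrays alone and passed the filter through them. All counts of this list, above and below, are therefore partly set by the filter. Elf5 was under 100 units in every group and Cdx2 read at most 108 units on any array. The Ascl2 mean went from 111.7 to 19.06 units in the knockout. Within genotypes 4 of the 6 rose in wild type (16.1% of all genes higher) and 2 in the knockout (14.8%). At 72 h 3 of them were lower in the knockout than in wild type (2.68% of all genes lower), and for 3 the interaction at 72 h was called lower (0.316%). Of 10 undifferentiated ES cell markers 4 fell, against 15.2% of all genes lower, Fgf4 most (-1.72 ± 0.13, limma adjusted p = 8.351e-08). Nanog and Klf4 had higher means at 72 h than in controls, 8118 against 6427 and 8062 against 5865 units in wild type. In the knockout these were 9153 against 8141 and 9752 against 7605 units. The replicate 1 controls lowered the Klf4 control means. They read 3154 units in wild type, where the other controls read 5968 and 8474, and 4127 in the knockout, where the others read 8573 and 10110. With the LIF labels exchanged the knockout array taken as a control read 11140 units, above both knockout 72 h arrays (10950 and 8557). The direction for Klf4 is therefore not settled. The sum of the list went from 111200 to 128600 units down to 95460 to 102000 units in wild type. In the knockout the sums overlapped, at 131700 to 142100 units in controls and 126700 to 133800 units at 72 h. The part of these cell types in the changes of Dnmt3l, Dnmt3b, Tet1, Uhrf1 and Tet2 was not tested. No primitive streak or mesoderm marker was tested. T had no probe set matched under that symbol, so its signal was not looked at. None of the other 5 (Mixl1, Mesp1, Gsc, Kdr and Tbx6) reached 100 units on 2 arrays. Of the fibroblast feeder markers Thy1 alone was tested. The feeder sum was 526.7 to 878.1 units in wild-type controls and 457.8 to 1519 units at 72 h, and 579.1 to 699.9 and 290.7 to 308.1 units in the knockout.

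Across the 18 arrays, Pearson correlation of log2 signals described which members varied together, as a description over arrays that share conditions and replicate numbers. Dnmt3b and Dnmt3l correlated at 0.69, Dnmt3l with Tet1 at 0.59, Dnmt3l with Uhrf1 at 0.59 and Dnmt3b with Tet1 at 0.57. Dnmt3a and Dnmt3l stood at -0.20, and the lowest pair was Dnmt3l with Tet2 at -0.41. Among 11419 genes, those most like Dnmt3l were Slc37a1 (0.962), Zfp518b (0.954) and Slc7a3 (0.953). The gene most like Dnmt3b was Enpp3 (0.913), that most like Uhrf1 was Zswim1 (0.905), and that most like Dnmt1 was Zc3h4 (0.897). Tet1 was matched best by Zfp729a (0.882), Tet2 by Kdm6b (0.874) and Dnmt3a by Med21 (0.855).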

How the data were processed

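Total RNA of 18 samples was measured on 18 single-colour Affymetrix arrays, 16 of them in the 6 replicated groups. The deposited table gives linear MAS5 signal intensity, per the submitters' processing notes. The MAS5 version and scaling were not given in the sources used here. As tested on the table, all arrays had a 2% trimmed mean of 500 units. Of 45101 probe sets 34958 had 1 gene symbol, 932 had several and 9211 were not listed. Signals were floored at 50 units and log2 transformed, and the probe set with the highest mean stood for a gene. Genes with 2 arrays at 100 units or more were tested (11388). Between 41.6% and 48.3% of an array's probe sets lay at the floor, and arrays carry no count depth, so precision is limited by how many arrays a group has and by signal over background.

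Tests used limma 3.58.1 under R 4.3.3 (lmFit, eBayes with an intensity trend, 10 residual degrees of freedom, two-sided), with Benjamini-Hochberg adjustment over all genes tested and a threshold of 0.05. LIF withdrawal had its own fit of 8 arrays, with 5 residual degrees of freedom. Scripts were tested on simulated data. The members, gene lists, tests and alternatives were chosen with earlier results of these data known. The text names all members, up to 4 genes per list by adjusted p, and the genes most correlated with each member. Socs3 and the other LIF-responsive genes, Pou5f1, Nanog and Tet3 were named after their values were seen. Alternatives covered the floor, filter, scaling, variance trend, arrays in the fit, probe sets, replicate block, LIF labels and each array left out.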

Additional observations from a re-analysis of the deposited data

Results flagged for a closer look

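At 72 h the Dnmt3a values of the genotypes lay in opposite directions on every array, as labelled and on the main probe set, while the test of that difference in the fit of all groups did not pass the threshold. Against the control mean, the difference of the 2 responses was 1.5368 on the log2 scale (limma adjusted p = 0.9314): both wild-type 72 h arrays stood at -0.51 and -0.03, and both knockout arrays at 1.06 and 1.48. Against the 8 h mean it was 1.7336 (limma adjusted p = 0.7428), with wild-type arrays at -0.70 and -0.22 and knockout arrays at 1.06 and 1.48. The second value does not involve the replicate 1 controls, but its error does: limma's adjusted p was 0.01101 with the LIF labels exchanged, 0.01776 without those controls and 0.03522 in a fit of the RA-treated arrays alone. Against control the wild-type direction turned with the controls, to 0.10 with the labels exchanged and 0.29 without them. On 2 other Dnmt3a probe sets wild type was also higher at 72 h, by 0.45 on 1423063_at (adjusted p = 0.4731) and by 1.42 on 1460324_at (adjusted p = 0.01991). How often genes in general show such opposite directions was not worked out, so the pattern is a description alone. No group had enough arrays to look for single outlying arrays.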

How the results depend on the processing

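Over the 7 genes and all alternatives, 2120 of 2205 values kept their direction and side of the threshold, 27 lost a call, 56 gained one and 2 reversed, and 268 of 315 counts of called members stayed within 1.5 times. The calls of Dnmt3l at 72 h held under every alternative run. The 2 reversals came with the LIF labels exchanged, in the no-LIF comparison: Dnmt3a at 1.77 and Dnmt3l at 0.50. That exchange gave 1 called member at 8 h of RA in wild type and 1 in the knockout, where 0 were called as labelled, 2 at 8 h over both genotypes in place of 1, 2 in the knockout at 72 h in place of 1, 2 in the knockout from 8 h to 72 h in place of 1, 1 in place of 0 in each genotype comparison (control, 8 h, 72 h and their mean) and in both 72 h interactions, and 2 in place of 0 without LIF. Leaving out both replicate 1 controls gave 2 at 8 h over both genotypes, 2 in the knockout at 72 h, 3 in place of 5 at 72 h over both, 2 in the knockout from 8 h to 72 h, and 1 between genotypes at 8 h, at 72 h and over the mean of conditions and in both 72 h interactions. This alternative was not run for the no-LIF comparison. Fitting only the groups compared gave 3 in the knockout from 8 h to 72 h, 1 between genotypes at 8 h and at 72 h, and 1 in the 72 h against 8 h interaction. No filter on dim genes left 2 at 72 h over both genotypes, and averaging probe sets gave 2 in the knockout at 72 h. Leaving out single arrays gave 0 to 1 called members at 8 h in wild type, 1 to 3 at 72 h in wild type, 1 to 2 at 72 h in the knockout, 3 to 5 at 72 h over both, 1 to 2 from 8 h to 72 h in wild type, and 0 to 1 between genotypes over the mean of conditions.

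Same-numbered arrays deviated together in most but not all pairs (36 pairs, correlation 0.032 to 0.504, median 0.26, 33 over 0.1, against a median of -0.14 and 3 of 70 over 0.1 for different numbers), and 15 of 16 arrays correlated best with one of their own number. Not every pair was over 0.1, and some numbers were assigned here from the style of the title. No label ties the numbers to a shared culture or day either, so the main fit has no replicate term. A member given as not called was not called in that fit, and some were called with the term. Under the replicate block, the called members numbered 1 at 8 h in wild type, 1 at 8 h in the knockout, 4 at 72 h in wild type, 6 at 72 h in the knockout, 4 in the knockout from 8 h to 72 h, 1 between genotypes in control and over the mean of conditions (Uhrf1), and 2 without LIF (Dnmt3a -1.61, adjusted p = 0.0009173, and Dnmt3b -0.71, adjusted p = 0.01378). Calls gained under it include Tet1 in the knockout at 72 h (adjusted p = 0.005375), Dnmt3b in wild type at 72 h (0.006571) and Uhrf1 between genotypes (0.0003924). The cause of these moves was not tested. Signal over background limits Tet3 and the dim probe sets of Tet1 and Dnmt3a, and 2 arrays per 72 h group limit every 72 h value.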
